A study of Homo sapiens with 8 samples.

Results

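Untreated SW620 cells were compared with untreated SW480 cells by RNA sequencing, with 1 library of each line taken by sample title from the 8 libraries of the series. SW480 and SW620 are established human colorectal adenocarcinoma lines, which the labels place at Dukes' type B (SW480) and Dukes' type C (SW620). Both were grown in DMEM with serum, and the labels give no treatment for these 2 libraries. The other 6 libraries are SW620 cells that stably express, from a U6 promoter in a puromycin-selected lentivirus, either a control hairpin (shNC, 3 libraries) or a hairpin against FOXA2 (shFOXA2, 3 libraries). They serve here only to show the levels of a gene in further SW620 libraries. The series title concerns transcription that is reprogrammed by tissue and the spread of colorectal cancer to the liver. Of 40693 gene symbols in the tables, 21343 had at least 20 counts in the higher of the untreated libraries and form the genes compared.

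SW480 is known as a line from a primary colon tumour and SW620 as a line from a later lymph node metastasis of the same disease, so that the pair has long been used to set a primary against a metastatic state. Colorectal cancers usually start from a lesion that leaves the Wnt pathway active, and they keep parts of the programme of the intestinal crypt, where Wnt, Notch, Eph and bone morphogenetic protein (BMP) signals place stem, secretory and absorptive cells. Lines adapted to culture also differ in chromosome content and in cell shape, and bulk RNA holds all of these differences at once.

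With 1 library per line there is no test, and a difference between the lines cannot be told apart from a difference between these libraries. Levels are given as CPM, counts scaled to a common library total. Differences are log2 ratios of SW620 over SW480 with 1 CPM added to each level. A gene at least 4-fold apart on that scale is called a difference here, and reaching that needs at least 3 CPM in the higher library. Single ratios are given without the added CPM and with exact 95% intervals that cover counting error only. Against 0 counts a ratio is a lower bound, set from 3 counts in that library.

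The untreated libraries were deep, with 72323506 counts in SW480 and 95935348 in SW620, so that 3 counts equal 0.0436 and 0.0314 CPM. The hairpin libraries held 7478411 to 13076566 counts, and there 3 counts equal 0.231 to 0.398 CPM. Genes of the mitochondrial genome made up 11.8% (SW480) and 11.1% (SW620) of the untreated counts but 4.47 to 4.84% in the hairpin libraries. Library 1 of shFOXA2 stood apart, with hepatocyte markers summing to 22.8 CPM against 2.26 to 4.46 CPM in the other 5 hairpin libraries. Hairpin values serve below as a guide to the SW620 line, not as replicates of the untreated state, and the labels do not say if a group's libraries are from separate cultures.

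Both libraries were those of epithelial cells. The 17 epithelial markers summed to 7053 CPM in SW480 and 6672 CPM in SW620, led by the keratins KRT8 (3174 and 3129 CPM) and KRT18 (2319 and 1527 CPM), with the adhesion protein EPCAM at 296 and 249 CPM. Fibroblast and endothelial markers (15 found in the tables) summed to 9.77 and 15.1 CPM, and COL1A2, COL3A1 and EMCN had 0 counts in both. The 20 leukocyte and blood markers summed to 243 and 102 CPM, of which PRF1, the pore protein perforin, gave 226 and 76.5 CPM, and PTPRC, the pan-leukocyte marker, had 0 counts in both. Colon markers (6 genes) summed to 106 CPM in SW480 and 25.5 CPM in SW620, and the colon transcription factor CDX1 had 0 and 2 counts. In bulk RNA, fewer cells with a transcript and less transcript per cell cannot be told apart.

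Of the 21343 genes, SW620 had the higher level by 4-fold or more in 482 (2.26%) and SW480 in 633 (2.97%). At 2-fold the counts were 1692 (7.93%) and 1937 (9.08%). The median log2 ratio over all genes was 0.01, with quartiles of -0.41 and 0.38. Among the 14543 genes that reached 3 CPM in the higher library, the 4-fold shares were 3.31% for SW620 and 4.35% for SW480. Of the coding genes, 410 of 14892 were 4-fold higher in SW620 and 566 in SW480. Antisense genes (23 and 21 of 2816) and long intergenic RNAs (27 and 29 of 1441) were called in both directions too, but the sources used here do not say if counting kept the strand, so reads of a gene and an overlapping antisense gene may be mixed.

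Libraries of the same line gave a yardstick for these shares. Between shNC libraries, 8 genes (0.0536%), 9 genes (0.0605%) and 1 gene (0.00671%) were at least 4-fold apart in either direction. Untreated SW620 differed more from shNC, by 259 (1.28%), 272 (1.35%) and 260 genes (1.29%) for shNC libraries 1, 2 and 3. The median absolute log2 ratio was 0.39 between the lines, 0.32 to 0.34 between untreated SW620 and shNC, and 0.09 to 0.10 between shNC libraries. By these medians untreated and control-hairpin SW620 were nearly as far apart as the lines, but the medians are not matched for depth or genes. The shNC libraries are shallower, so counting error is larger there. The pairs covered 21343 genes between the lines, 20202 to 20223 for untreated SW620 and shNC, and 14887 to 14927 between shNC libraries. The part of counting error in these medians was not tested. Differences of 4-fold were more frequent between the lines.

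**Figure D1:**
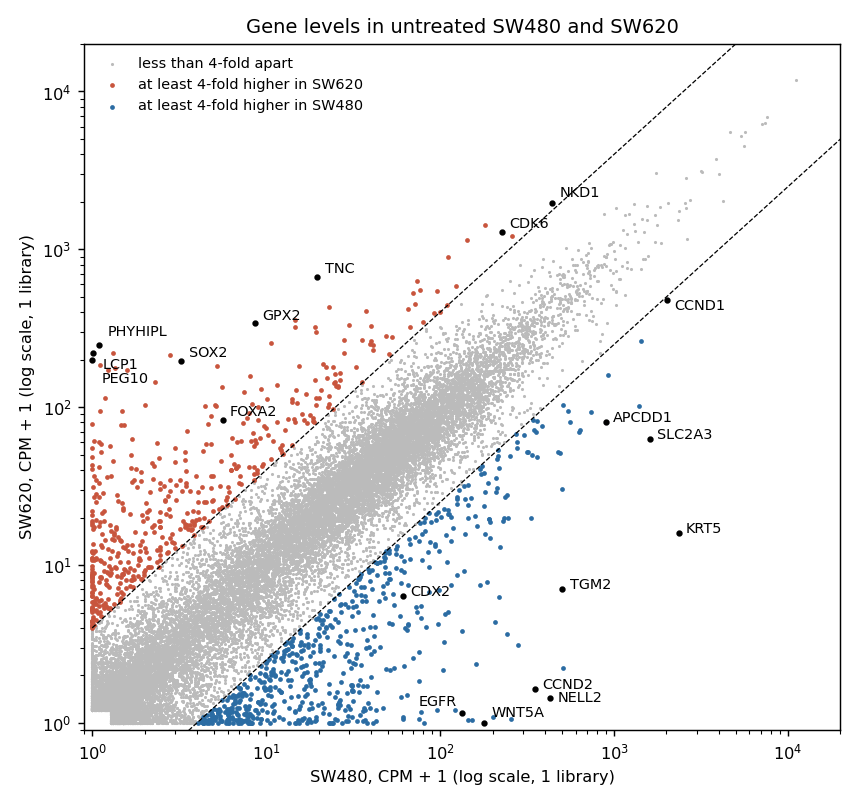
Level of each of the 21343 genes in untreated SW480 (x axis) and SW620 (y axis), as CPM + 1 on log scales, 1 library each. Dashed lines mark 4-fold: 482 genes lie above the upper line and 633 below the lower line, with LCP1, PHYHIPL and PEG10 at the left edge and NELL2, WNT5A and EGFR at the bottom.

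Genes that were high in SW620 and nearly silent in SW480 came from varied families. LCP1, which encodes L-plastin, an actin-bundling protein of blood cells and many carcinomas, had 1 count in SW480 (0.0145 CPM) and 21101 in SW620 (221 CPM). Its level was 231, 216 and 205 CPM in the shNC libraries and 208, 231 and 224 CPM in the shFOXA2 libraries, so all 7 SW620 libraries were within a narrow band far above SW480. The ratio was 15189-fold, with an interval of 2726 to 599980 that is wide because SW480 gave a single count. PHYHIPL had the highest log2 ratio (7.84), with 0.0871 CPM in SW480, 247 CPM in SW620 and 67.3 to 120.3 CPM in the hairpin libraries. PEG10, an imprinted gene derived from a retrotransposon, had 0 counts in SW480 and 199 CPM in SW620, at least 4578-fold higher. It was at 116, 118 and 114 CPM in shNC and at 157, 152 and 166 CPM in shFOXA2.

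Surface proteins and cytoskeletal genes were among the same extremes. MME, the cell-surface peptidase neprilysin (CD10), was at 0.102 and 184 CPM in SW480 and SW620, a ratio of 1814 (interval 880.4 to 4514). PROM1, the membrane glycoprotein CD133, was at 0.102 and 93.6 CPM. CNN3, the acidic calponin that binds actin, was at 0.232 and 170.2 CPM and stayed at 153 to 186 CPM in the hairpin libraries. SPN (CD43), a sialoglycoprotein best known from leukocytes, was at 1.31 and 144 CPM. WIPF1, a partner of the actin regulator WASP, had 0 counts in SW480 and 77.3 CPM in SW620. For each of these genes every hairpin library lay far above SW480.

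Signalling and transcription genes completed the SW620 extremes. SOX2, a transcription factor of pluripotent cells and foregut, was at 2.25 CPM in SW480 and 196 CPM in SW620, 87.3-fold higher (interval 74.5 to 103). In the hairpin libraries SOX2 was at 157, 139 and 140.4 CPM in shNC and 127 to 139.8 CPM in shFOXA2. RASSF6, a member of the RAS association domain family, was at 0.319 and 221 CPM. The neighbours TMEM176A (1.79 and 212 CPM) and TMEM176B (1.02 and 102 CPM) were both about 100-fold apart, with ratios of 119 and 101. MFNG, a glycosyltransferase that modifies Notch, was at 0.523 and 76.1 CPM, and HLTF, a helicase-like transcription factor, at 0.261 and 55.8 CPM. The remaining genes of the 25 with the highest log2 ratios were SHISA9, CXCL6, CGNL1, CALB1, POF1B, PCDH19, TOX3, FAM13C, GRIK2, SMOC2 and TMEM178B, with log2 ratios from 5.55 (TMEM178B) to 7.03 (SHISA9).

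Genes far higher in SW480 than in SW620 included a keratin, a cyclin, a growth factor receptor and a Wnt ligand. KRT5, a keratin of basal cells in stratified epithelia, was at 2350 CPM in SW480 and 14.9 CPM in SW620, 158-fold apart (interval 149.5 to 166). It was at 29.4, 26.2 and 25.8 CPM in shNC and 22.4, 24.4 and 22.7 CPM in shFOXA2, so all SW620 libraries were low. NELL2, a secreted glycoprotein best known from neurons, had the largest log2 ratio towards SW480 (-8.24), with 429 CPM in SW480 and 0.429 CPM in SW620. CCND2, the cyclin D2 gene, was at 348 and 0.638 CPM, and 0 to 0.576 CPM in the hairpin libraries. EPAS1, which encodes the hypoxia-inducible factor HIF-2α, was at 509.6 CPM in SW480, 1.21 CPM in SW620 and 0.384 to 0.987 CPM in the hairpin libraries.

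EGFR, the epidermal growth factor receptor, was at 132 CPM in SW480 and 0.157 CPM in SW620, 840.4-fold apart (interval 509 to 1502). The shNC libraries had 0.39, 0.461 and 0.163 CPM of EGFR and the shFOXA2 libraries 1.97, 1.86 and 1.18 CPM. GLI3, a transcription factor of the hedgehog pathway, was at 278 and 2.1 CPM, and RUNX2, a transcription factor of bone formation, at 206 and 3.33 CPM. ZAP70, a kinase of the T-cell receptor, was at 120.2 and 0.209 CPM. TGM2, the protein cross-linking enzyme tissue transglutaminase, was at 503 and 6.07 CPM. The acute-phase genes SAA1 (74.8 and 0.0523 CPM) and SAA2 (42 and 0.0209 CPM) were both high in SW480, but they are near-identical copies whose reads may be shared. Also among the 25 were PHLDB2, CCDC3, IQGAP2, ASB4, GJA3, KCNJ5, MRVI1, CRIM1 and PRR5L, with log2 ratios from -5.44 (PRR5L) to -7.20 (PHLDB2), and a noncoding gene, RP13-1039J1.2.

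Differences also reached the most abundant transcripts. NKD1, an inhibitor that Wnt signalling itself induces, was at 439 CPM in SW480 and 1979 CPM in SW620. It was lower in the hairpin libraries, at 989 to 1057 CPM in shNC and 972 to 1016 CPM in shFOXA2, between the untreated values. TMSB4X, which encodes the actin-sequestering peptide thymosin β4, was at 180.2 and 1434 CPM, with 1452 to 1566 CPM in the hairpin libraries. TNC, the matrix protein tenascin C, was at 18.7 and 667 CPM, and the cyclin-dependent kinase gene CDK6 at 227 and 1291 CPM. On the other side, CCND1 (cyclin D1) was at 2016 and 479 CPM and SLC2A3, the glucose transporter GLUT3, at 1612 and 62.1 CPM. HSP90AA1, the inducible cytosolic HSP90 chaperone, was at 4241 and 2017 CPM, a 2.1-fold ratio. This made the second largest difference in CPM after KRT5 among genes at least 2-fold higher in SW480. In the hairpin libraries HSP90AA1 was at 2535 to 3061 CPM, between the untreated values.

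**Figure D2:**
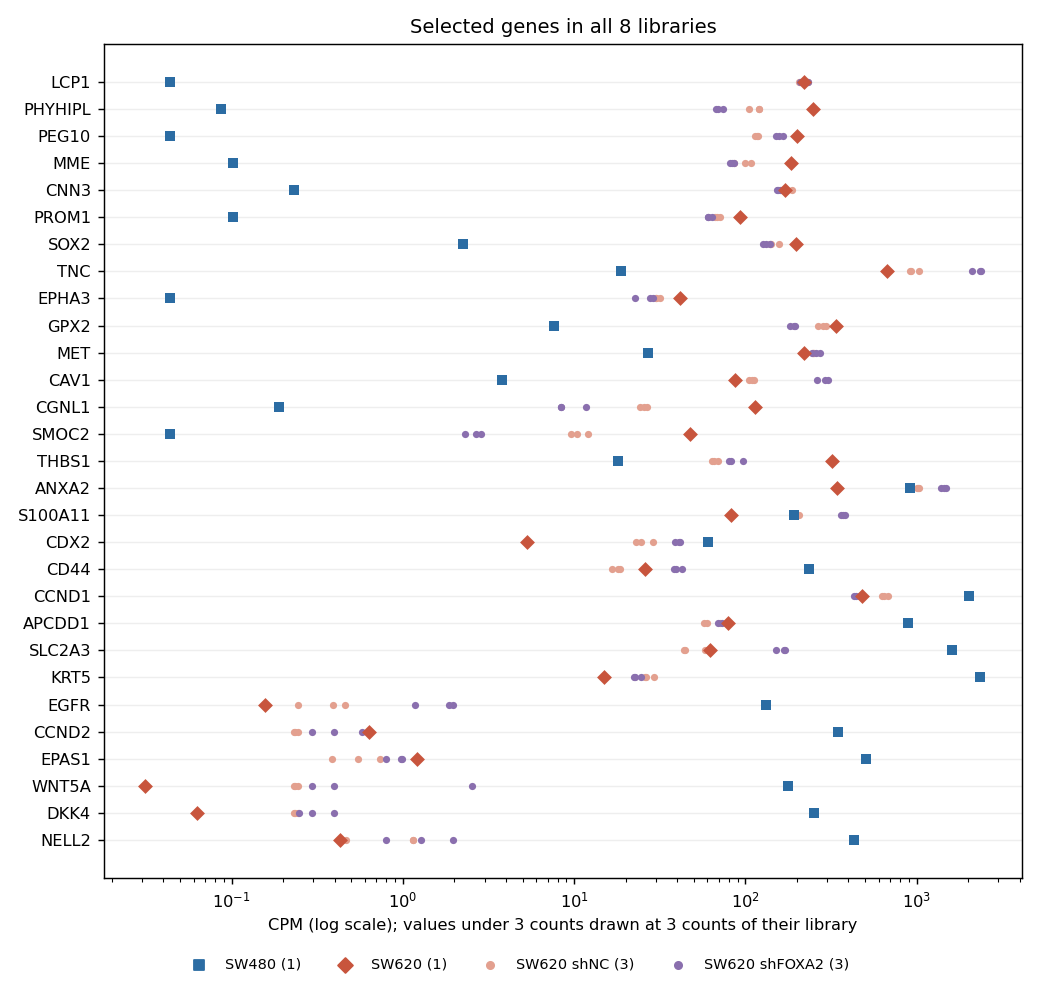
CPM on a log scale of 29 genes in all 8 libraries: SW480 (square), SW620 (diamond), 3 shNC and 3 shFOXA2 libraries of SW620 (circles), with values under 3 counts drawn at 3 counts of their library. From LCP1 to CAV1 the SW620 libraries all lie to the right of SW480 and from CD44 to NELL2 all to the left, while ANXA2 and S100A11 of untreated SW620 lie to the left of SW480 and those of the hairpin libraries do not.

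For some genes the untreated SW620 library and the hairpin libraries of the same line disagreed. ANXA2, a membrane-binding annexin, was at 914 CPM in SW480 and 341 CPM in untreated SW620, but at 1038, 1019.5 and 1000.3 CPM in shNC and 1383 to 1493 CPM in shFOXA2. S100A11, a calcium-binding protein, was at 192 and 82.1 CPM, against 192 to 204 CPM in shNC. Their direction between the lines thus depended on which SW620 library was used. CGNL1, a tight junction protein, was at 0.189 CPM in SW480 and 114 CPM in SW620, and at 24.4 to 26.7 CPM in shNC. THBS1 (thrombospondin 1) was at 18.2 and 322 CPM, with 69.1, 64.1 and 65.3 CPM in shNC. These last genes kept their direction at a smaller size. Depth, the share of mitochondrial counts and the lentivirus all differ between untreated and hairpin libraries, and their part in these values was not tested.

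Lists of genes were then described by their counts at 4-fold and their median, to be read against 2.26% (SW620), 2.97% (SW480) and a median of 0.01 over all genes tested. Members near 0 in both libraries were not tested, and tested members under 3 CPM could not be called. Among all genes that reached 3 CPM, the shares were 3.31% (SW620) and 4.35% (SW480). Most signalling and identity lists held a larger share of called genes than all genes tested, and the lists for cell division, translation and respiration held none. The lists were chosen with earlier results of these data known, so their shares describe the chosen genes and give no independent support. No list was tested against other genes.

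**Figure D3:**
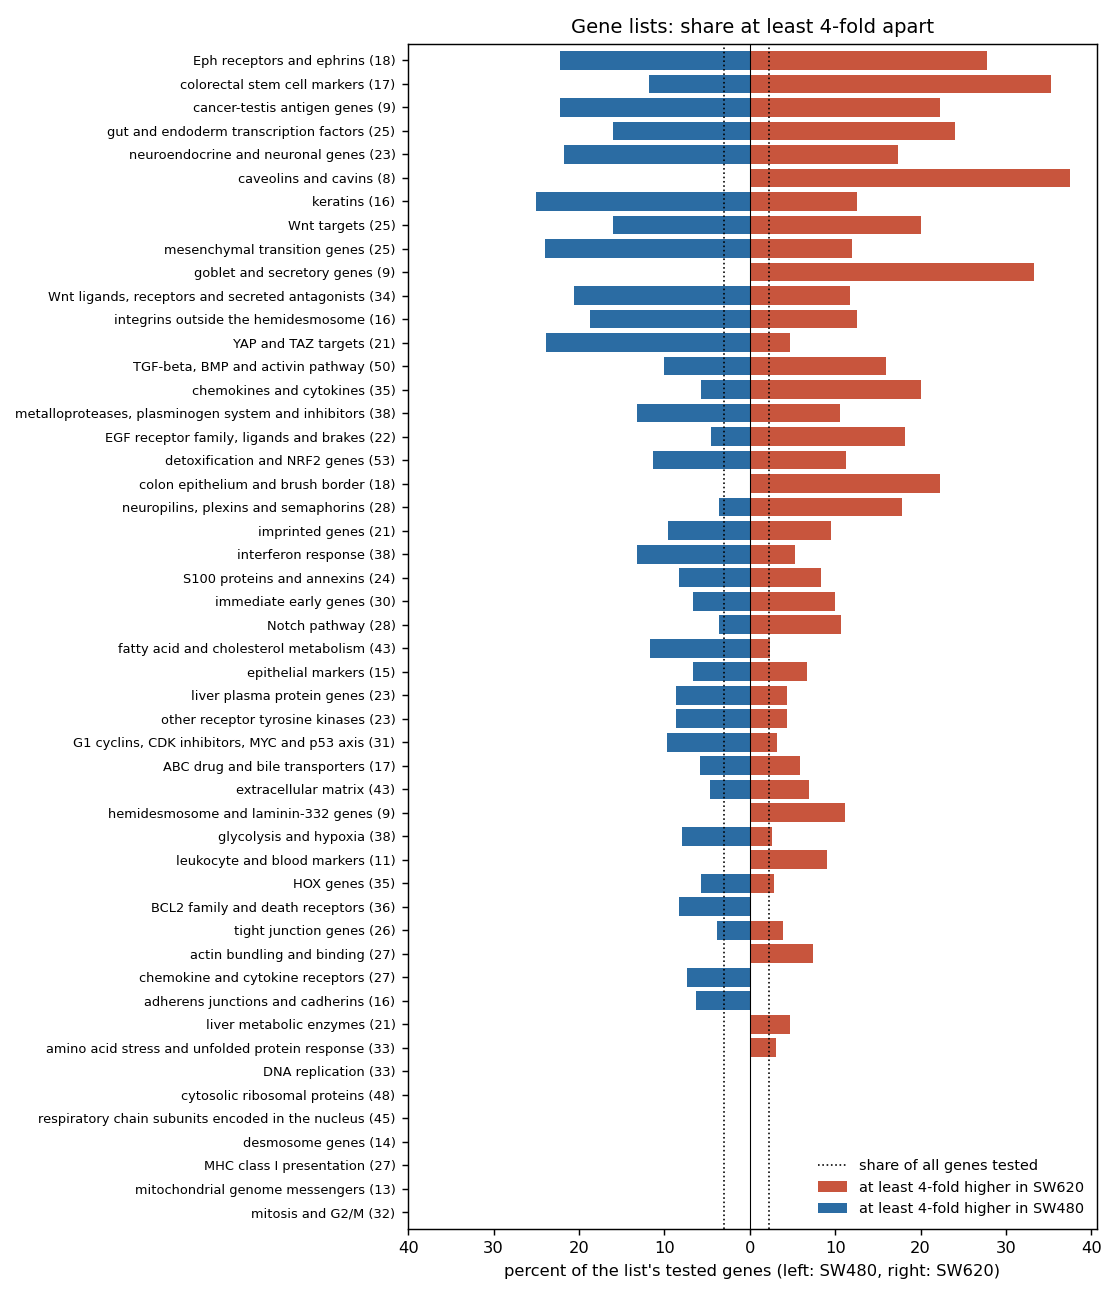
Percent of each list's tested genes (number in parentheses) at least 4-fold higher in SW480 (bars to the left) or SW620 (bars to the right), for lists with at least 8 tested genes. Dotted lines mark the shares over all genes tested, 2.97% and 2.26%. Eph receptors and ephrins head the order with 4 and 5 of 18 genes, and the lists at the foot have 0.

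Transcription factors of gut and endoderm differed in both directions. Of 25 tested, 6 were called for SW620 and 4 for SW480, with a median log2 ratio of 0.67. EHF, an epithelial ETS factor, was at 20.2 CPM in SW480 and 188 CPM in SW620, 9.3-fold higher (interval 8.8 to 9.83), with 99 to 126 CPM in the hairpin libraries. The related factor ELF3 (18.2 and 114 CPM) was also higher in SW620, as was the nuclear receptor HNF4G (0.0581 and 5.2 CPM). The pioneer factors FOXA2 (4.63 and 82.4 CPM) and FOXA3 (0.857 and 9.71 CPM) were called for SW620 too. SW480 had more TBX3 (43.8 and 4.93 CPM) and PDX1, a factor of pancreas and duodenum (9.11 and 0.648 CPM). CDX2, the main intestinal homeobox factor, was at 60.3 CPM in SW480 and 5.33 CPM in untreated SW620, but at 22.9, 24.5 and 29 CPM in shNC and 38.8 to 41.6 CPM in shFOXA2, all between the untreated values.

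Genes of mature colon cells that were 4-fold apart were higher in SW620. In the colon epithelium and brush border list, 4 of 18 tested genes were 4-fold higher in SW620 and 0 in SW480, with a median of 0.73, and 12 of the 30 listed genes were under the count minimum. The mucin MUC13, among the 4, was at 3.85 and 29.8 CPM. The carbonic anhydrase CA2, at 0.0581 and 2.97 CPM, was not called (log2 ratio 1.91). In the goblet and secretory list, 3 of 9 tested genes were higher in SW620 and 0 in SW480, with a median of 1.08, and 10 were not tested. TFF3, the trefoil peptide of goblet cells, was at 0.0581 and 27.3 CPM and at 16.6 to 30 CPM in the hairpin libraries. MUC5AC, a mucin of stomach, was at 0.102 and 7.36 CPM, and MUC1 at 2.69 and 15.6 CPM. MUC2, the main colon mucin, at 0.523 and 3.51 CPM, was not called (log2 ratio 1.57).

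Keratins and junctions separated along other lines. Of 16 keratins tested, 2 were 4-fold higher in SW620 (KRT7 and KRT20) and 4 in SW480. Besides KRT5 and KRT6B, SW480 had more KRT23 (331 and 19 CPM) and KRT13 (30.1 and 0.742 CPM), while KRT7, a keratin of simple ducts, was higher in SW620 (1.79 and 28.6 CPM). KRT6A was at 14.5 CPM in SW480 and 3.14 CPM in SW620 but at 20.9 to 23.6 CPM in shNC. CDH1 (E-cadherin) was at 39.2 and 101 CPM, and CDH3 (P-cadherin) went the other way at 35.7 and 0.24 CPM, 148-fold higher in SW480 (interval 98.7 to 235). Of 26 tight junction genes, CGNL1 was the only one 4-fold higher in SW620 and CLDN7, a claudin (109 and 9.46 CPM), the only one in SW480. None of 14 desmosome genes was 4-fold apart (median -0.02).

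Wnt ligands, receptors and secreted antagonists differed in both directions. Of 34 tested genes, 4 were 4-fold higher in SW620 and 7 in SW480, and 6 and 13 at 2-fold, with a median of -0.44. WNT5A, a ligand of mostly β-catenin-independent signalling, was at 178 CPM in SW480 and at 0 counts in SW620, at least 5692-fold higher. It stayed at 0.078, 0.154 and 0.0816 CPM in shNC, and at 2.55, 0.266 and 0.196 CPM in shFOXA2. The ligands WNT6 (51.7 and 3.24 CPM) and WNT16 (8.25 and 0.324 CPM) and the receptor FZD7 (35.9 and 0.209 CPM) were also higher in SW480. ROR2, one of several receptors of WNT5A, was at 12.6 CPM in SW480 and 0 counts in SW620, so neither WNT5A nor ROR2 was counted in untreated SW620. The receptor genes ROR1 and RYK were not called, with log2 ratios of -0.85 and 0.46.

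The secreted antagonists differed in both directions. DKK4, which blocks the LRP co-receptors, was at 253 and 0.0627 CPM, 4037-fold higher in SW480 (interval 1855 to 11003), and DKK3, a more distant family member, at 19.2 and 2.54 CPM. SW620 instead had DKK1 (3.08 and 20.6 CPM), the decoy SFRP5 (27 and 265 CPM) and KREMEN1, a receptor of DKK proteins (72.9 and 629 CPM). KREMEN1 was lower in the hairpin libraries, with 233 to 267 CPM in shNC and 89.4 to 102 CPM in shFOXA2. The co-receptor LRP5 was at 79 and 343 CPM.

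Genes known as Wnt targets did not lean to one line. Of 25 tested, 5 were 4-fold higher in SW620 and 4 in SW480, with a median of 0.11. APCDD1 (893 and 79 CPM), CD44 (235 and 25.9 CPM), LEF1 (50.4 and 7.17 CPM) and CCND1 were those higher in SW480, and AXIN2, often used as a reporter of the pathway, was at 829.9 and 261 CPM, 3.18-fold higher (interval 3.13 to 3.22). SW620 had more NKD1, LGR5 (0.508 and 21.8 CPM), EPHB2 (23.9 and 162 CPM), EPHB3 (7.13 and 60.4 CPM) and SMOC2. SMOC2, a matricellular protein of crypt base cells, had 0 counts in SW480 and 47.6 CPM in untreated SW620, at least 1092-fold higher, but 12, 9.53 and 10.4 CPM in shNC and 2.3 to 2.84 CPM in shFOXA2.

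In the colorectal stem cell list, which shares LGR5, SMOC2, EPHB2 and CD44 with the Wnt targets, 6 of 17 tested genes were 4-fold higher in SW620 and 2 in SW480 (median 0.82). ALCAM, the adhesion molecule CD166, was at 2.51 and 69.3 CPM, and PROM1 and SOX2 were those given above. DCLK1, a kinase of tuft cells, went the other way with 24 CPM in SW480 and 0.0627 CPM in SW620. ASCL2, a crypt base transcription factor, was nearly level at 87.6 and 91.7 CPM. So the common surface markers of this list split, with CD133 and CD166 in SW620 and CD44 in SW480.

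The receptors MET and EGFR differed in opposite directions. MET, the receptor of hepatocyte growth factor, was at 26.9 CPM in SW480 and 221 CPM in SW620, 8.23-fold higher (interval 7.84 to 8.63), and at 249, 253 and 247 CPM in shNC. EGFR went the other way, while ERBB2 (66.1 and 62.1 CPM) and ERBB3 (57.9 and 96.3 CPM) were within 2-fold. Of 22 tested receptors, ligands and feedback inhibitors of the EGF receptor family, 4 were 4-fold higher in SW620 and 1, EGFR, in SW480, with a median of 0.36. The 4 were the ligands HBEGF (1.74 and 11.1 CPM) and EREG (0.261 and 4.38 CPM), the phosphatase DUSP4 (40.2 and 230.5 CPM) and the inhibitor SPRY2 (17.5 and 80.2 CPM). Other members of the same kinds lay on the SW480 side, with log2 ratios of -1.60 for SPRY4, -0.88 for LRIG1 and -0.71 for TGFA. Among 23 other receptor tyrosine kinases, MET was the 1 higher in SW620, and ALK (13.8 CPM and 0 counts) and ROR2 were the 2 higher in SW480.

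Guidance molecules showed many differences. Of 18 tested Eph receptors and ephrins, 5 were 4-fold higher in SW620 and 4 in SW480. EPHA3 had 0 counts in SW480 and 41.7 CPM in SW620, at least 958-fold higher, with 29.9 to 31.7 CPM in shNC. The ligand EFNB2 was at 7.96 and 100 CPM, while EPHA4 (46.3 and 10.2 CPM) and EFNA4 (8.89 and 1.01 CPM) were higher in SW480. Of 28 tested neuropilins, plexins and semaphorins, 5 were higher in SW620 and 1 in SW480, with a median of 0.59. The secreted semaphorins SEMA3A (18.3 and 297 CPM), SEMA3D (0.0581 and 24 CPM) and SEMA3F (6.71 and 84.4 CPM) were higher in SW620. Their co-receptor NRP1 was the gene higher in SW480, at 42.4 and 7.61 CPM.

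The TGF-beta, BMP and activin pathway had 8 of 50 tested genes 4-fold higher in SW620 and 5 in SW480, with a median of -0.10. Among ligands, BMP4 was at 47.5 CPM in SW480 and 283 CPM in SW620, BMP5 at 0.16 and 27.7 CPM, and the activin subunit INHBB at 66.5 and 323 CPM. Of the TGF-beta receptors, TGFBR1 was higher in SW480 (218 and 40.4 CPM) and TGFBR2 in SW620 (22 and 104 CPM). The BMP-induced inhibitor SMAD6 (1.58 and 30.8 CPM) and ID1, a classic BMP target (2 and 54 CPM), were higher in SW620. SMAD7, the inhibitor most linked to TGF-beta (24.8 and 2.31 CPM), and ID2 (228 and 17.9 CPM) were higher in SW480. ID1 was at 76.3 to 105 CPM and SMAD7 at 3.84 to 4.57 CPM in shNC, on the SW620 side in both cases.

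In the Notch pathway, 3 of 28 tested genes were 4-fold higher in SW620 and 1 in SW480. The glycosyltransferases LFNG (8.38 and 129 CPM) and MFNG and the ligand DLL4 (1.02 and 15 CPM) were higher in SW620. NRARP, a feedback inhibitor induced by Notch, was higher in SW480, at 52.8 and 5.52 CPM. DLL4 was at 12.8 to 14.6 CPM in shNC and 2.55 to 3.54 CPM in shFOXA2.

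Targets of YAP and TAZ, the coactivators that respond to cell shape and contact, included some of the genes with the highest ratios in SW480. Of 21 tested, 5 were 4-fold higher in SW480 and 1 in SW620, 11 and 2 at 2-fold, and the median was -1.48. ANKRD1, a standard target, was at 201 CPM in SW480 and 0.0941 CPM in SW620 (9 counts), 2141-fold apart (interval 1128 to 4684). In the hairpin libraries ANKRD1 was at 5.77 to 9.82 CPM, well under SW480. CYR61 was at 26.5 and 1.08 CPM with 2.5 to 4.46 CPM in shNC, whereas CTGF was at 6.1 and 0.659 CPM with 9.36, 4.84 and 4 CPM in shNC, on both sides of SW480. AMOTL2 was at 96.1 and 23.4 CPM, against 69.3 to 92.1 CPM in shNC. The coactivator genes themselves were closer, with YAP1 at 351 and 299.5 CPM and WWTR1, which encodes TAZ, at 62.4 and 22.3 CPM.

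Genes of the mesenchymal transition list differed in both directions. Of 25 tested, 3 were 4-fold higher in SW620 and 6 in SW480, with a median of -0.57. SW480 had more PRRX1 (7.32 and 0.105 CPM) and GNG11 (7 CPM and 0 counts). Those higher in SW620 were TNC, TGFBR2 and ANXA1. VIM (vimentin) was at 212 and 109 CPM in the untreated lines but at 409 to 453 CPM in shNC and 654 to 677 CPM in shFOXA2. CDH2 (N-cadherin) was under the count minimum.

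Cell surface and matrix genes added to these. CAV1, the main coat protein of caveolae, was at 3.8 CPM in SW480 and 87.5 CPM in SW620, 23-fold higher (interval 20.3 to 26.1), with 104 to 112 CPM in shNC and 262 to 305 CPM in shFOXA2. CAV2 (7.49 and 36.6 CPM) and the caveolar protein SDPR (0.116 and 12.4 CPM) made up the 3 of 8 tested in this list that were higher in SW620, with 0 in SW480. Integrins outside the hemidesmosome had 2 of 16 higher in SW620, ITGB7 (1.13 and 21.3 CPM) and ITGB8 (5.29 and 39.2 CPM), and 3 in SW480, led by ITGA3 (114 and 13.2 CPM). Of 43 extracellular matrix genes, 3 were higher in SW620 (TNC, THBS1 and LUM) and 2 in SW480, led by the collagen IV chain COL4A2 (31.4 and 2.89 CPM). Of 27 actin genes only LCP1 and CNN3 were called.

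Proteases and their inhibitors also split. Of 38 tested, 4 were 4-fold higher in SW620 and 5 in SW480. MMP7, the metalloprotease matrilysin made by intestinal tumour cells, had 2 counts in SW480 (0.029 CPM) and 25.9 CPM in SW620, a ratio of 892 (interval 247 to 7366). TMPRSS2, a membrane serine protease, was at 5.33 and 63 CPM. SW480 had more of the inhibitor TIMP3 (12.7 and 0.721 CPM) and of MMP14, a membrane-bound metalloprotease (38 and 8.09 CPM).

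Among chemokines that attract neutrophils, CXCL6, IL8, CXCL1 and CXCL3 were 4-fold higher in SW620, and CXCL2 and CXCL5 had log2 ratios of 1.07 and 0.71. Of 35 tested chemokines and cytokines, 7 were 4-fold higher in SW620 and 2 in SW480, with a median of 0.10. CXCL6 was at 0.581 CPM in SW480 and 170.1 CPM in SW620, 293-fold higher (interval 215 to 410.0), and at 44.4 to 64 CPM in shNC. IL8 was at 4.59 and 132 CPM, CXCL1 at 9.11 and 111 CPM, and CCL20, which attracts dendritic cells and lymphocytes, at 3.5 and 57.2 CPM. CCL20 was nearer to SW480 in shNC, at 5.76 to 12.2 CPM, and CXCL1 varied within shNC, at 188, 25.9 and 26.9 CPM. CX3CL1 (0.813 and 30.4 CPM) and the death ligand TNFSF10 (10.6 and 136 CPM) were likewise lower in shNC, at 6.79 to 9.14 and 23.8 to 28.7 CPM. SW480 had more CXCL14 (6.9 CPM and 0 counts) and CXCL16 (25.4 and 2.57 CPM), and the receptor CXCR4 was at 48 and 11.2 CPM.

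Interferon-related genes were higher in SW480 in 5 of 38 tested cases and in SW620 in 2. The antiviral membrane proteins IFITM1 (24.9 and 0.324 CPM), IFITM2 (215 and 52.7 CPM) and IFITM3 (181 and 14.8 CPM) and IFI27 (61.9 and 2.97 CPM) were higher in SW480, and SAMD9 (2.95 and 35.5 CPM) and USP18 (1.19 and 8.66 CPM) in SW620. The IFITM genes are close copies that may share reads. None of 27 genes of MHC class I presentation was 4-fold apart (median -0.06).

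Among the cell cycle lists, only that of the G1 phase held genes 4-fold apart (12.9%). Of 31 genes of the G1 phase, CDK inhibition, MYC and p53, 1 was 4-fold higher in SW620 (CDK6) and 3 in SW480 (CCND2, CCND1 and CDKN1A). CDKN1A, the inhibitor p21, was at 58.7 and 10.4 CPM. In the control-hairpin libraries CDK6 was at 398 to 408 CPM, nearer to SW480 (227 CPM) than to untreated SW620 (1291 CPM). CCND1 was at 626 to 681 CPM there, nearer to untreated SW620 (479 CPM) than to SW480 (2016 CPM). The mitosis and G2/M list had 0 of 32 genes called (median -0.25), with CDK1 (100.2 and 319 CPM) and AURKA (172 and 78.6 CPM) at over 2-fold in opposite directions. DNA replication had 0 of 33 called (median 0.23).

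Other shared machinery was also close. Nuclear respiratory chain genes had 0 of 45 called (median 0.01), mitochondrial genome messengers 0 of 13 (median -0.19) and cytosolic ribosomal proteins 0 of 48 (median 0.19). RPL37, the ribosomal gene at over 2-fold, was at 343 CPM in SW480 and 739.8 CPM in SW620, and at 3446, 1013 and 1020.5 CPM in shNC. RPL37 thus differed by over 3-fold between shNC libraries, far beyond counting error.

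Detoxification genes differed in both directions. Of 53 tested, 6 were 4-fold higher in SW620 and 6 in SW480. GPX2, the gut form of glutathione peroxidase, was at 7.58 CPM in SW480 and 339 CPM in SW620, 44.8-fold higher (interval 41.1 to 48.9), and at 182 to 295 CPM in the hairpin libraries. The aldo-keto reductases AKR1B1 (0.218 and 34.9 CPM), AKR1C1 (0.929 and 13.1 CPM) and AKR1C3 (1 count, and 30.1 CPM) were called for SW620. AKR1C2 (1.63 and 9.41 CPM) was also higher there but, with 1 CPM added, just under the 4-fold call. The AKR1C copies may share reads. DPYD, the enzyme that degrades fluorouracil, had 0 counts in SW480 and 7.19 CPM in SW620, at least 165-fold higher. SW480 had more UGT1A1 (50.4 and 1.17 CPM), UGT1A6 (35.1 and 0.7 CPM) and UGT1A10 (32.8 and 0.742 CPM), glucuronosyltransferases whose transcripts share exons, so that 1 active transcript can give counts to all of them. Among transporters, ABCC2 (MRP2) was higher in SW620 (0.0871 and 31.9 CPM) and ABCB1 (P-glycoprotein) in SW480 (111 and 20 CPM).

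Metabolic genes differed in both directions. Of 43 fatty acid and cholesterol genes, 5 were 4-fold higher in SW480 and 1 in SW620. The sterol pathway genes CYP51A1 (274 and 53.9 CPM) and INSIG1 (77.6 and 14.8 CPM) and the acyl-CoA synthetase ACSL6 (28.6 and 0.0314 CPM) were higher in SW480, and the coactivator PPARGC1A (0.842 and 7.51 CPM) in SW620. Of 38 glycolysis and hypoxia genes, EPAS1, SLC2A3 and NDRG1 (138 and 25.2 CPM) were higher in SW480, and CA9, a carbonic anhydrase induced by hypoxia, in SW620 (6.19 and 59.8 CPM). In the list for amino acid stress and the unfolded protein response, 0 of 33 were 4-fold higher in SW480 and 11 were 2-fold higher there, with GDF15 (17.9 and 79.8 CPM) the 1 gene higher in SW620. The 11 included ASNS (102 and 32.9 CPM) and DDIT3 (26.3 and 8.52 CPM), which in shNC were at 108 to 126 and 41.6 to 52.8 CPM, above SW480.

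Imprinted, germline and developmental genes gave on-off contrasts. Next to PEG10, SGCE was also higher in SW620 (0.029 and 9.7 CPM), while IGF2 (85.1 and 5.76 CPM) and PLAGL1 (29.8 and 1.22 CPM) were higher in SW480, out of 21 imprinted genes tested. Of 9 cancer-testis genes tested, MAGEA12 (0 counts, and 39.7 CPM) and MAGEB2 (0 counts, and 5.39 CPM) were higher in SW620, and PASD1 (79.9 CPM, and 0 counts) and MAGEC2 (3.37 CPM, and 0 counts) in SW480. Of 35 HOX genes, HOXC13 was higher in SW620 (2.95 and 18.2 CPM), and the neighbours HOXD10 (10.1 and 0.0418 CPM) and HOXD11 (6.65 and 0.0418 CPM) in SW480. HOXD10 had 0 counts in all 6 hairpin libraries.

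Liver genes, which the series title makes of interest, were mixed in level, and the 7 hepatocyte markers were near the floor in both lines. These markers summed to 0.261 CPM in SW480 and 1.67 CPM in SW620. Of 43 genes for liver plasma proteins 20 were not tested, and of the 23 tested 1 was 4-fold higher in SW620, F5, the coagulation factor V (2 counts, and 3.18 CPM), and 2 in SW480. ALB (albumin) was at 0.0726 and 1.41 CPM. The genes higher in SW480 were APOE (23.4 and 1.65 CPM) and SERPINA1, α1-antitrypsin (75.4 and 17.6 CPM). Of 21 liver metabolic enzymes tested, 1 was higher in SW620, the cytochrome CYP2E1 (0.218 and 6.44 CPM).

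Levels per length set members of small families side by side in each line. By the authors' RPKM (reads scaled by gene length and library size), PLS3 (32.1 in SW480 and 62.6 in SW620) and PLS1 (9.16 and 24.5) were present in both lines, and LCP1 (0.00265 and 42.2) joined them in SW620. In SW480 the RPKM of CCND1 was 397, of CCND2 46.3 and of CCND3 12.3, and in SW620 these were 99, 0.0888 and 8.12, so CCND1 was the highest D cyclin in both. FOXA2 was the highest FOXA gene in both lines (RPKM 1.69 and 31.6), followed by FOXA1 (0.521) in SW480 and FOXA3 (4.42) in SW620. TEAD1 was the highest TEAD gene in both (30.9 and 37.1), while TEAD2 was at 10.7 and 2.4. GATA2 was the highest GATA gene tested (13.2 and 3.91).

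**Figure D4:**
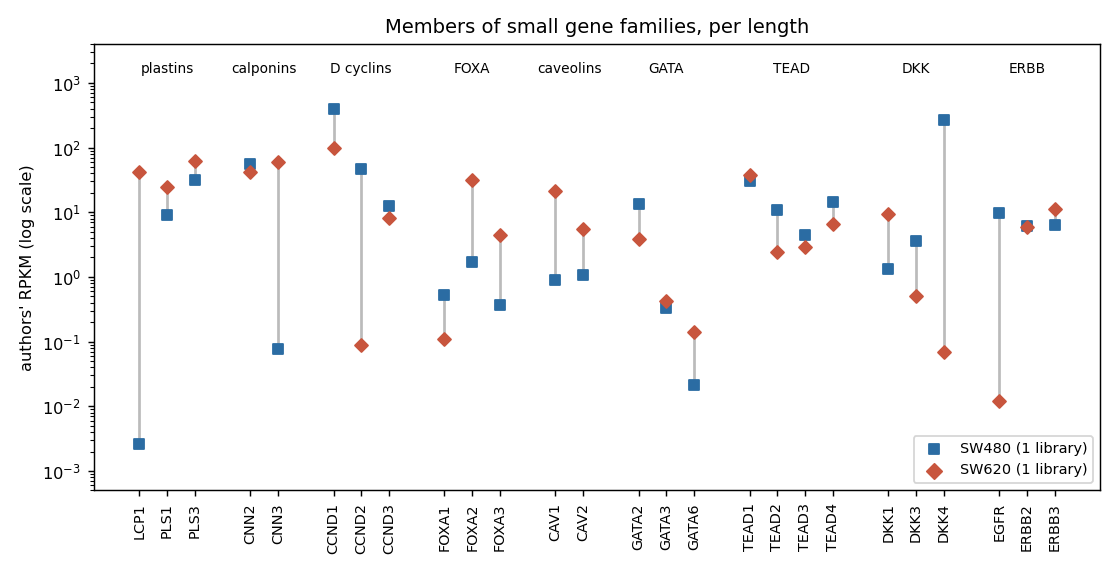
The authors' RPKM on a log scale for members of 9 small gene families in SW480 (squares) and SW620 (diamonds), 1 library each, joined by a line. LCP1, CNN3, CCND2, DKK4 and EGFR span over 100-fold while their family members PLS3, CNN2, CCND3, DKK1 and ERBB2 differ less.

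Differences were also arranged along chromosomes. Over coding genes of at least 5 CPM, chromosome 10 had the highest median log2 ratio (0.78, 460 genes), and 50 of its 761 tested genes were 4-fold higher in SW620 against 18 in SW480. Chromosome 2 had the lowest (-0.45, 793 genes), with 18 and 83 of 1359. Chromosomes 16 (0.29) and 22 (0.27) were on the SW620 side, and 21 (-0.39), 13 (-0.38) and 9 (-0.35) on the SW480 side. In 284 blocks of 40 neighbouring coding genes, 19 had a median of at least 0.5, 24 of at most -0.5, and 241 lay between. From PARG to CCAR1 on chromosome 10 the median was 1.61 with 40 of 40 genes above 0, and from PDP2 to PSMB10 on chromosome 16 it was 1.36 with 40 of 40. From MPHOSPH8 to CDX2 on chromosome 13 it was -0.99 with 2 above 0, and from ANKRD50 to LRBA on chromosome 4 -0.66 with 0. DNA copy number was not measured here, and its part in these values was not tested.

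**Figure D5:**
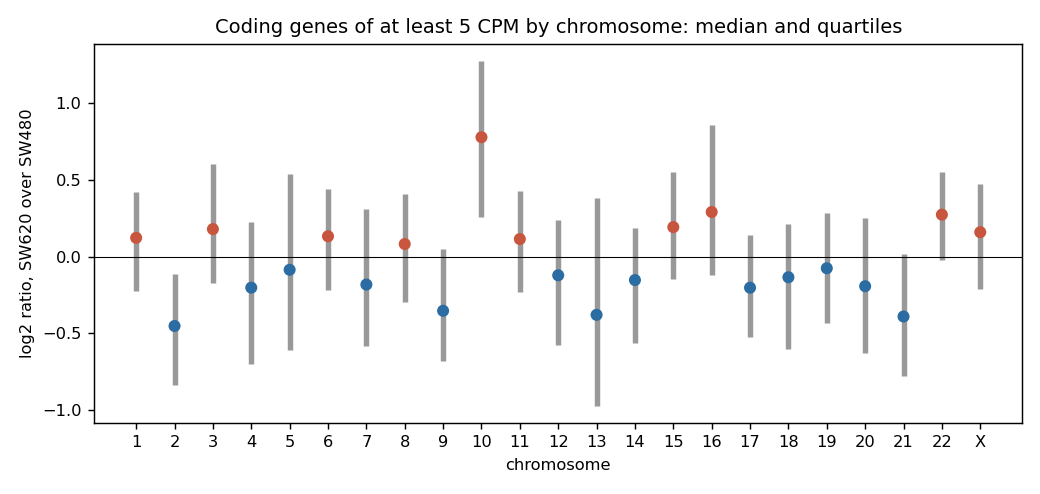
Median (points) and quartiles (bars) of the log2 ratio of SW620 over SW480 for coding genes of at least 5 CPM on each chromosome. Chromosome 10 has the highest median at 0.78 and chromosome 2 the lowest at -0.45.

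Some called genes lay next to each other. Neighbours were taken in the order of the 14892 tested coding genes, so untested genes between them were passed over. Of the 410 coding genes higher in SW620, 93 (22.7%) had a directly neighbouring, non-overlapping gene in this order called the same way. A neighbour called the other way was found for 22 (5.37%). For the 566 higher in SW480 these were 114 (20.1%) and 21 (3.71%). Of all 14892 coding genes, 4.71% had such a neighbour higher in SW620 and 6.62% one higher in SW480. Runs included RASSF6, IL8, CXCL6 and CXCL1 on chromosome 4, CAV2, CAV1 and MET on chromosome 7, BICC1, PHYHIPL and FAM13C on chromosome 10 and TMEM176B, TMEM176A, AOC1 and KCNH2 on chromosome 7 for SW620. For SW480 they included 9 UGT1A genes on chromosome 2, the cystatins CST4, CST1, CST2, CST5 and CST7 on chromosome 20, IFITM2, IFITM1, IFITM3 and B4GALNT4 on chromosome 11, and MAOA, MAOB and NDP on chromosome X. Unlike the shares above, the runs did not leave out overlapping genes, and the UGT1A transcripts share exons. Some other runs are gene copies that may share reads.

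Promoters of the called genes more often had a low ratio of observed to expected CpG pairs. RefSeq windows of 300 bases around the first listed start (250 before, 50 after) were at hand for 11034 of the 14892 coding genes. The CpG ratio, observed over expected, was at least 0.6 in 77.2% of all these promoters, in 55.1% of the 296 for genes 4-fold higher in SW620 and in 65.5% of the 394 for genes higher in SW480. TATAAA, searched on both strands, was in 6.54% of all, 12.5% (SW620) and 9.39% (SW480). The forkhead letters TGTTTAC, also on both strands, were in 2.33%, 4.05% and 2.54%, which is 12 promoters of SW620 genes and 10 of SW480 genes. The TEAD letters GGAATG were in 11.2%, 13.9% and 11.4%, and the AP-1 letters TGACTCA in 3.34%, 5.41% and 4.31%. A match is a description of letters and not a binding site.

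Shown here are 4 of these windows, chosen after the values were seen, because LCP1 and RASSF6 on one side and ANKRD1 and CDX2 on the other are among the contrasts above and carry such letters. Each is the 250 bases before the first listed RefSeq start on GRCh38.p14, read 5′ to 3′ along the gene's strand, with the matched letters in capitals (on the opposite strand, TGTTTAC reads GTAAACA). All 4 genes are on the minus strand. RASSF6 (chr4:73620632-73620881) has the forkhead letters at -19. LCP1 (chr13:46182178-46182427) has TATAAA at -247 and -97 and holds 2 CpG pairs. ANKRD1 (chr10:90921088-90921337) has GGAATG at -220 and -128. CDX2 (chr13:27969316-27969565) has the forkhead letters at -13 and holds 10 CpG pairs.
RASSF6: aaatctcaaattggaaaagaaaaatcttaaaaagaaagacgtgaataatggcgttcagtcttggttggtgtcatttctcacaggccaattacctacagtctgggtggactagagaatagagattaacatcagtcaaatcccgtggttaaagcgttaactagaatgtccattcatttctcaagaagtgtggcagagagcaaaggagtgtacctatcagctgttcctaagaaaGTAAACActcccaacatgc
LCP1: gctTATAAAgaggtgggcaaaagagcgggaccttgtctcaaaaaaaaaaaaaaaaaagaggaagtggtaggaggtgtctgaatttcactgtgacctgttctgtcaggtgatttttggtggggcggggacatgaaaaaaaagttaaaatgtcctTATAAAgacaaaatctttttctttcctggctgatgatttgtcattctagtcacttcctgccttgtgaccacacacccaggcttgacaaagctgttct
ANKRD1: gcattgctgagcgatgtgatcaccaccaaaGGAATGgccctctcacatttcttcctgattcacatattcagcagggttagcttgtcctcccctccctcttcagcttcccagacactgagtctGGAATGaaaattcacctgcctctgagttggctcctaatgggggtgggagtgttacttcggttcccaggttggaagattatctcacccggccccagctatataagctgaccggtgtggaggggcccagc
CDX2: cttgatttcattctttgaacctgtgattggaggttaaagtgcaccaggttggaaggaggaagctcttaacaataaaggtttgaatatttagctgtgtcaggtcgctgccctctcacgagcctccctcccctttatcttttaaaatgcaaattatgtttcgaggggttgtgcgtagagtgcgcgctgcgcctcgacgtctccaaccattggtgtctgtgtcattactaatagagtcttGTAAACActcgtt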

How the data were processed

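The deposited tables, 1 per library, hold raw counts, a length and RPKM for 42713 genes. RPKM values were computed by the authors and equal the count over the listed length and the table's total. The submitters' processing notes name HOMER and hg19 with no role. The sources used here give no aligner, no annotation of genes and no use of strand, although the labels name a directional kit. Total counts per library give the depth in the report, and intervals cover counting error only.

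From the deposited counts, each of 256 repeated symbols was represented by its entry with the most counts over all libraries. CPM used TMM factors over all 8 libraries (edgeR 4.0.16, R 4.3.3). Genes needed 20 counts in the higher untreated library. No test was run, since each line has 1 untreated library, and DESeq2 1.42.0 only gave alternative size factors. Gene members and the 52 lists were chosen with earlier results of these data known. Genes named were the 25 with the highest log2 ratio in each line among those with at least 100 counts, up to 5 per list and direction at 2-fold, all members of the paralogue families, marker genes, and the 15 per line with the largest CPM difference at 2-fold. Any other gene was chosen after its values were seen. Some genes that this rule takes are not reported here. Chromosome and order of genes came from GENCODE v29 (GRCh38), matched by Ensembl gene ID without version for 20307 genes. Promoters came from RefSeq, matched by symbol. The scripts were tested on simulated data. Python 3.11.15, pandas 2.3.3 and matplotlib 3.10.9 were used.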

Additional observations from a re-analysis of the deposited data

How the results depend on the processing

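The number of genes called 4-fold depended on the CPM added before the ratio and on the threshold. With 0.1 CPM added, 1139 genes were higher in SW620 and 1431 in SW480, and with 5 CPM added 220 and 267, so low genes enter or leave with this choice. By threshold the numbers were 1692 and 1937 at 2-fold and 198 and 235 at 8-fold. Scaling by total counts gave 503 and 591 genes, DESeq2 size factors 465 and 651, and TMM over the untreated libraries alone 485 and 613. Thinning both untreated libraries to the shallowest shNC total, an alternative chosen after seeing the data, gave 481 and 631. Between shNC libraries 2 and 3 the count was 2 after thinning to equal depth and 1 before. List medians moved by more than 0.102, the largest median absolute difference between shNC libraries, for 15 of 52 lists with 0.1 CPM added, 18 with at least 100 counts and 0 under the other scalings. Of the list medians over 0.1 in size, the one that changed sign was that of the cancer-testis genes, from 0.15 to -0.57 with at least 100 counts. No paired analysis was possible because each line has 1 untreated library. Differences between the lines have no replicate check.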
